A study of Equus caballus with 24 samples.

Results

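The genes described here belong to the pathway by which corticotrophs and melanotrophs of the pituitary make peptides from proopiomelanocortin. They are POMC, TBX19, PCSK1, PCSK2, CRHR1 and PAX7, 6 of the 24232 genes in the deposited table of reads and of the 24248 genes in the deposited table of RPKM. They were taken by their gene symbol, and each symbol was found once. All 6 had reads in the pituitary of each breed at each developmental stage that was sequenced.

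POMC encodes a precursor that is cut into several hormones, among them ACTH, beta-endorphin and the melanocyte-stimulating hormones. Corticotrophs of the anterior lobe cut it to ACTH with the convertase PCSK1, and melanotrophs of the intermediate lobe also express PCSK2, which cuts ACTH further to alpha-MSH. TBX19 is the transcription factor that both cell types need to express POMC, PAX7 directs the melanotroph fate, and CRHR1 is the receptor through which corticotropin-releasing hormone drives the corticotrophs. In old horses the intermediate lobe is known to become overactive, a disease called pituitary pars intermedia dysfunction.

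RNA was sequenced from the pituitary and from the epiphysis of a long bone of 12 healthy female horses, untreated animals of the small Debao pony (DP) and of the larger Mongolian horse (MH). There were 8 groups of 3 libraries: the pituitary of juvenile (DPPJ) and of adult DPs (DPPA), that of juvenile (MHPJ) and of adult MHs (MHPA), and the same 4 groups of long bone (DPLBJ, DPLBA, MHLBJ and MHLBA). The labels give the stage and not an age, and neither they nor the methods used here say which lobe of the pituitary was taken. Between 11433209 and 27007342 reads per library were counted on genes.

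The pituitary libraries were of 2 kinds. The summed RPKM of 8 markers of the other hormone cells of the anterior lobe, among them GH and PRL, was between 9516 and 30524 in 7 libraries, which were DPPJ replicates 1 to 3, DPPA replicates 2 and 3 and MHPA replicates 2 and 3. It was between 0.26 and 8.50 in the other 5, which were MHPJ replicates 1 to 3, DPPA replicate 1 and MHPA replicate 1. So the defining markers of the anterior lobe were at or near 0 in these 5 libraries although they carry the label of the pituitary. In the same 5 libraries the summed RPKM of 7 markers of pituicytes and astrocytes was between 2268 and 5416, and that of 5 oligodendrocyte markers between 2383 and 11703. In the hormone-rich libraries these sums were between 21.6 and 2115 and between 50.8 and 1551, and the highest value of each was that of DPPJ replicate 2. MHPJ replicate 2 also had a summed RPKM of 552 for skeletal muscle fibres, against at most 10.2 in the other pituitary libraries. All MHPJ libraries were of the hormone-poor kind, so a difference between breeds or stages that involves MHPJ cannot be told apart from this difference in makeup. In such bulk samples, fewer cells of a type and less RNA per cell cannot be told apart either.

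POMC had 0 reads in some pituitary libraries and 247654 in another. In DPPJ it had 129327, 60152 and 33277 reads in replicates 1, 2 and 3, which is an RPKM of 15134, 6511 and 3284. In DPPA its RPKM was 13.0, 23294 and 5093. In MHPA it was 0.28, 22228 and 5000.3. In each adult group replicate 1 was thus far below the other replicates. In MHPJ the counts were 0, 32 and 0 reads, an RPKM of 0, 5.62 and 0, and a count of 0 allows for up to 3 reads per library (counting error only). By group medians POMC was highest in DPPJ (6511), followed by DPPA (5093) and MHPA (5000.3), and these neighbours overlapped. MHPJ, with a median of 0, ranked below all 4 long bone groups. In DPPJ replicate 1 POMC took 0.708% of all reads on genes. The files give POMC a length of 351 bases, the shortest of the 6, so its RPKM relative to the other genes depends on that gene model, while comparisons of POMC between libraries do not.

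TBX19, the factor upstream of POMC, followed the same division of the libraries. Its RPKM was 38.5, 13.7 and 21.3 in DPPJ, 0.36, 47.0 and 41.5 in DPPA, and 0, 161 and 58.6 in MHPA. In MHPJ it was 0.14, 0.33 and 0.21, from 5, 8 and 7 reads. The lowest of the hormone-rich libraries was at 13.7 and the highest of the hormone-poor ones at 0.36, so no value lay between. By medians the order was MHPA, DPPA, DPPJ and MHPJ. The first 3 overlapped, and DPPJ did not overlap MHPJ.

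PAX7, the melanotroph factor, was lower in level but had the same division. Its RPKM was 6.11, 3.03 and 2.88 in DPPJ, 0.09, 11.6 and 2.77 in DPPA, and 0.06, 24.9 and 4.44 in MHPA. In MHPJ it was 0.14, 0.44 and 0.10, which is within the 0.03 to 0.72 of the long bone libraries. PAX7 is also known as a factor of muscle satellite cells. MHPJ replicate 2, with the most PAX7 of the 5 hormone-poor libraries, also had the highest summed RPKM of satellite cell markers among the pituitary libraries (2.77). The part of such cells in its PAX7 was not tested.

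The convertases and the receptor were not divided in this way, since they were also found in hormone-poor libraries. PCSK1 had an RPKM of 47.1, 40.1 and 16.4 in DPPJ, 42.8, 87.8 and 74.9 in DPPA, 12.6, 1.33 and 4.16 in MHPJ, and 0.18, 97.3 and 49.9 in MHPA. DPPA replicate 1 therefore had a PCSK1 level close to that of hormone-rich libraries, with a POMC level of 13.0. This library was also the one with the most AVP, the gene of vasopressin, a peptide of hypothalamic neurons whose axons end in the posterior lobe, at an RPKM of 2106. PCSK2 was at 66.3, 23.6 and 32.5 in DPPJ, 11.97, 140.1 and 35.6 in DPPA, 15.7, 0.74 and 23.25 in MHPJ, and 1.29, 163 and 51.0 in MHPA. MHPJ replicates 1 and 3 thus held PCSK2 without any POMC read. CRHR1 was at 15.8, 6.93 and 14.7 in DPPJ, 1.53, 16.24 and 21.2 in DPPA, 13.25, 0 and 8.07 in MHPJ, and 0.44, 38.8 and 16.24 in MHPA. The same MHPJ replicates, 1 and 3, held CRHR1 within the range of DPPJ. These replicates also had the highest summed RPKM of 7 neuron markers, 1519 and 1605, against 202 in MHPJ replicate 2. The hormone-poor DPPA replicate 1 had a sum of 1343, close to these, with PCSK2 at 11.97 but CRHR1 at only 1.53. The part of neurons in the PCSK2 and CRHR1 of these libraries was not tested.

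**Figure D1:**
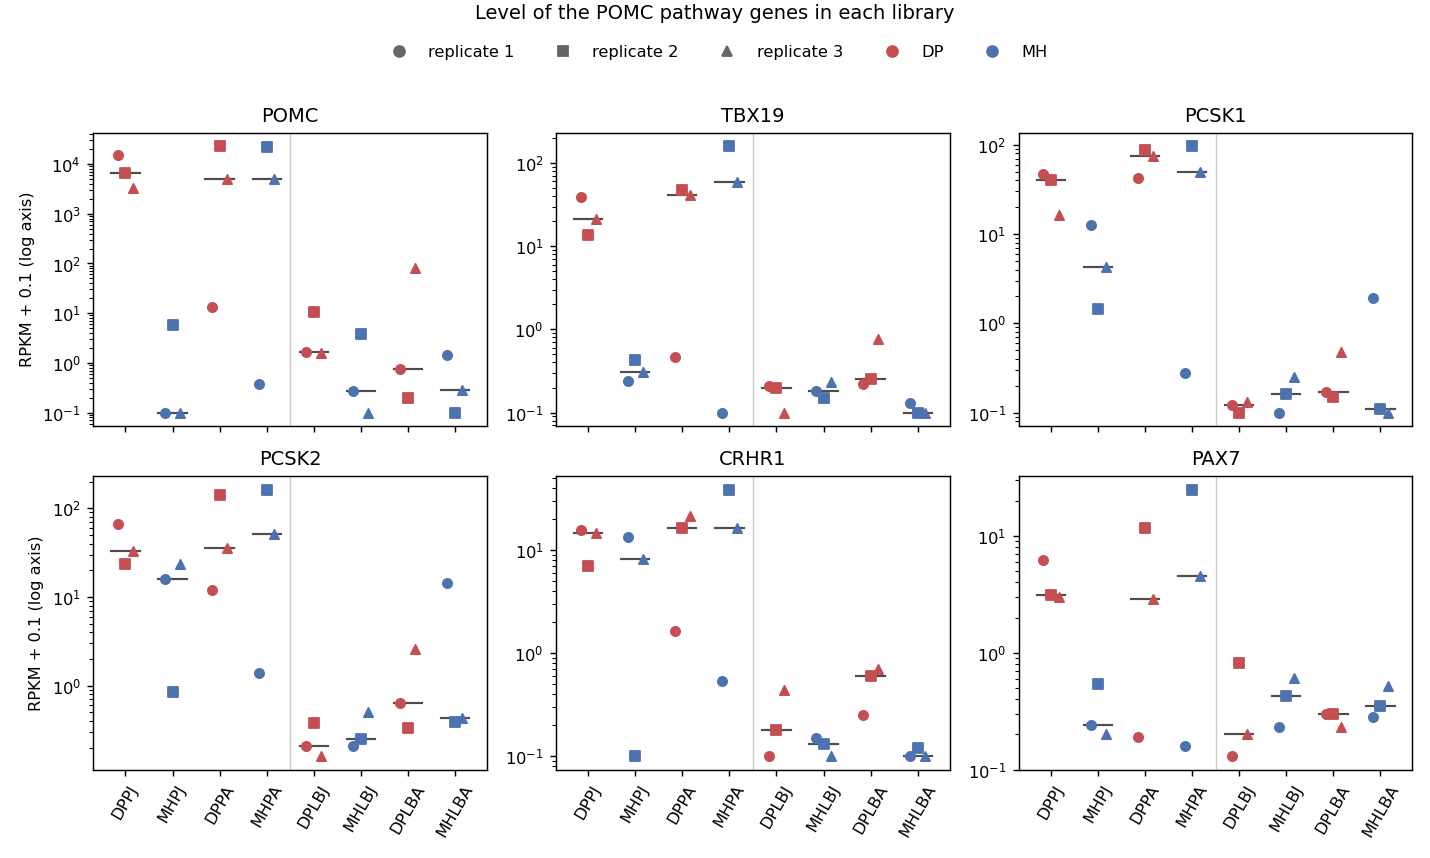
RPKM + 0.1 on a log axis (y) of the 6 genes in the 24 libraries by group (x), with the pituitary to the left and the long bone to the right of the line, 1 point per library and the group median as a bar. POMC, TBX19 and PAX7 were near their long bone levels in all MHPJ libraries and in replicate 1 of DPPA and MHPA, while PCSK1, PCSK2 and CRHR1 were above them in some of these libraries.

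**Figure D2:**
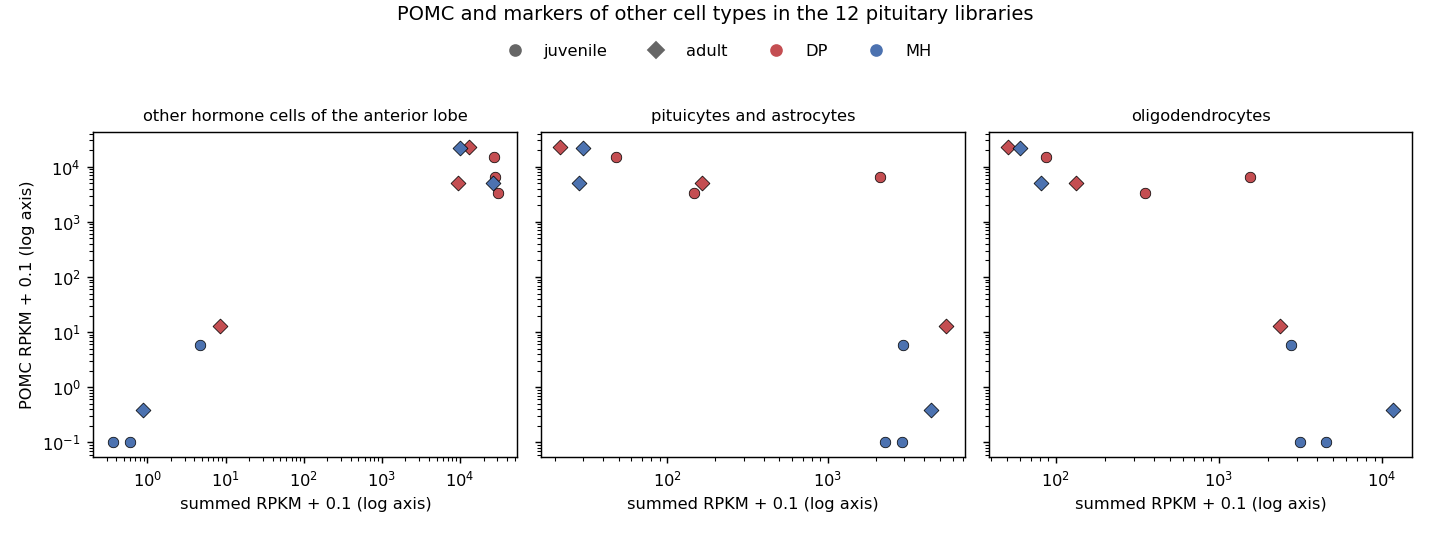
RPKM + 0.1 of POMC (y) against the summed RPKM + 0.1 of 3 lists of cell markers (x) in the 12 pituitary libraries, all on log axes. The 7 libraries with over 1000 RPKM of anterior lobe markers had POMC at 3284 or more, and the other 5 had it at 13.0 or less.

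The comparison of the breeds at the juvenile stage asked which genes of the pathway differ between the small and the larger horse while they grow. In DPPJ against MHPJ, 4 of the 6 genes were differentially expressed genes (DEGs), all higher in DPs. A gene was called a DEG where its fold change exceeded 2 and its unadjusted P was below 0.05, the threshold of the study. Over all 14603 genes tested 20.3% were DEGs and 7.6% were higher in DPs. POMC was higher by 11.97 ± 2.25 on the log2 scale (adjusted p = 0.0310 in edgeR's quasi-likelihood test). The error, here and below, is the size of the log2 fold change divided by the square root of the test's F statistic. It is called the standard error and is only approximate, above all where libraries had 0 reads. TBX19 was higher by 6.58 ± 0.62 (adjusted p = 0.00996), and PAX7 by 3.95 ± 0.73 (adjusted p = 0.0302). These 3 genes also passed an adjusted p of 0.05, as did 10.7% of all genes. PCSK1 was higher by 2.39 ± 0.83 and did not (adjusted p = 0.113). POMC, TBX19 and PAX7 had so few reads in MHPJ that they passed the filter on low counts only through DPPJ. The filter thus favoured a higher level in DPPJ for them. The libraries of the 4 DEGs did not overlap between the breeds, as was the case for 39.7% of all genes tested. PCSK2 (1.46 ± 1.07, adjusted p = 0.386) and CRHR1 (0.67 ± 1.37, adjusted p = 0.760) did not pass. With single libraries left out POMC, TBX19 and PAX7 remained DEGs, at an adjusted p of up to 0.126, 0.0772 and 0.130. PCSK1 was no DEG without MHPJ replicate 3 (2.22) or without replicate 1 (2.09) or 2 (2.23) of DPPJ, nor when all 12 pituitary libraries were fitted together (2.40). Without MHPJ replicate 2, the only one with POMC reads, the fitted log2 fold change of POMC was 19.12, which is set against libraries at 0 and is no bound.

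In the adult pituitary none of the 6 genes was a DEG between breeds. Over all 14376 genes tested 2.93% were. The log2 fold changes of DPPA against MHPA were 0.33 ± 2.65 for POMC, -1.07 ± 2.10 for TBX19, 0.74 ± 1.44 for PCSK1, 0.08 ± 1.45 for PCSK2, -0.29 ± 1.36 for CRHR1 and -0.76 ± 1.86 for PAX7, with an adjusted p between 0.895 and 0.991. The standard errors exceeded every one of these differences, and each group held 1 library of the hormone-poor kind. Without these 2 libraries, which were also those with the least POMC and TBX19 in their groups, POMC differed by 0.31 and TBX19 by -1.10. TBX19 then passed the DEG threshold, the only one of the 6 (adjusted p = 0.198). Leaving out its lowest libraries narrows its spread, so this is no test of the breeds.

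Between the stages of DPs, 1 of the 6 genes was a DEG, and over all 14533 genes tested 3.56% were and 2.64% were lower in juveniles. PCSK1 was lower in juveniles by a log2 fold change of -1.08 ± 0.44 (adjusted p = 0.427). Its 3 adult libraries, at 42.8 to 87.8, overlapped the juvenile range of 16.4 to 47.1 on the RPKM scale but not after TMM normalization, as was the case for 21.8% of the genes tested. It was no DEG without DPPJ replicate 2 (-1.19), DPPJ replicate 3 (-0.73), DPPA replicate 2 (-0.85) or DPPA replicate 3 (-1.07). It was none either without TMM normalization (-0.95), with limma and a pseudocount of 1 (-1.03) or 0.1 (-1.06), with all 12 pituitary libraries fitted together (-1.08) or with the replicate number as a block (-1.19). POMC differed by -0.27 ± 1.72, less than its error. The direction for POMC was not the same in all fits, as it was 2.54 with limma on log2(RPKM + 1), where each library counts alike. Without the hormone-poor DPPA replicate 1, the differences were -0.86 for POMC, -0.91 for TBX19, -1.30 for PCSK1 and -1.20 for PCSK2, and of these PCSK1 passed the threshold (adjusted p = 0.264). That library was also the adult DP one with the least of each of these genes. Leaving it out raises the adult mean, so this is no test of the stages.

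Between the stages of MHs, 3 of the 6 genes were DEGs, all lower in juveniles, and over all 14430 genes tested 7.74% were DEGs and 3.24% were lower in juveniles. POMC was lower in MHPJ by -11.92 ± 4.07 (adjusted p = 0.398), TBX19 by -8.01 ± 2.48 (adjusted p = 0.384) and PAX7 by -5.11 ± 1.86 (adjusted p = 0.408). The groups overlapped for each of the 3, since MHPA replicate 1 was below the MHPJ libraries for TBX19 and PAX7 and within their range for POMC. POMC was no DEG without MHPA replicate 2 (-10.09), MHPJ replicate 1 (-11.28) or MHPJ replicate 3 (-11.32), and without MHPJ replicate 2 its difference was -18.82 against juvenile libraries at 0. TBX19 was no DEG without MHPJ replicate 1 (-7.69) or MHPJ replicate 3 (-7.99), and was not tested without MHPA replicate 2. With single libraries left out, PAX7 was a DEG only without MHPA replicate 1 or 3, and was -2.99 without MHPA replicate 2. Without the hormone-poor MHPA replicate 1 the differences were -12.53 for POMC, -8.61 for TBX19, -5.70 for PAX7 and -3.35 for PCSK1. That library was also the adult one with the least of these genes, and the hormone-poor MHPJ libraries remained, so these are given as values only.

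The comparisons DPPJ with MHPJ and MHPJ with MHPA share the MHPJ libraries, so their differences for POMC, TBX19 and PAX7 are not independent. The test of whether the breeds differed more at the juvenile than at the adult stage used all 12 pituitary libraries. This difference of differences was 11.70 ± 4.12 for POMC (adjusted p = 0.184) and 7.69 ± 2.73 for TBX19 (adjusted p = 0.187). Both passed the unadjusted threshold, as did 15.7% of the 15200 genes tested, and no gene passed an adjusted p of 0.05. PAX7 had 4.76 ± 2.32 and did not pass (adjusted p = 0.271). PCSK1, PCSK2 and CRHR1 had 1.66, 1.39 and 0.96, each below its standard error of 1.81, 1.98 and 2.11. With the replicate number as a block PAX7 passed the unadjusted threshold too, at 5.65 (adjusted p = 0.225), so that 3 of the 6 did. Without the hormone-poor adult libraries, which were also those with the least POMC and TBX19, the value was 11.72 for POMC, 7.71 for TBX19 and 4.77 for PAX7, and it is given with no test since the hormone-poor MHPJ libraries remained.

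**Figure D3:**
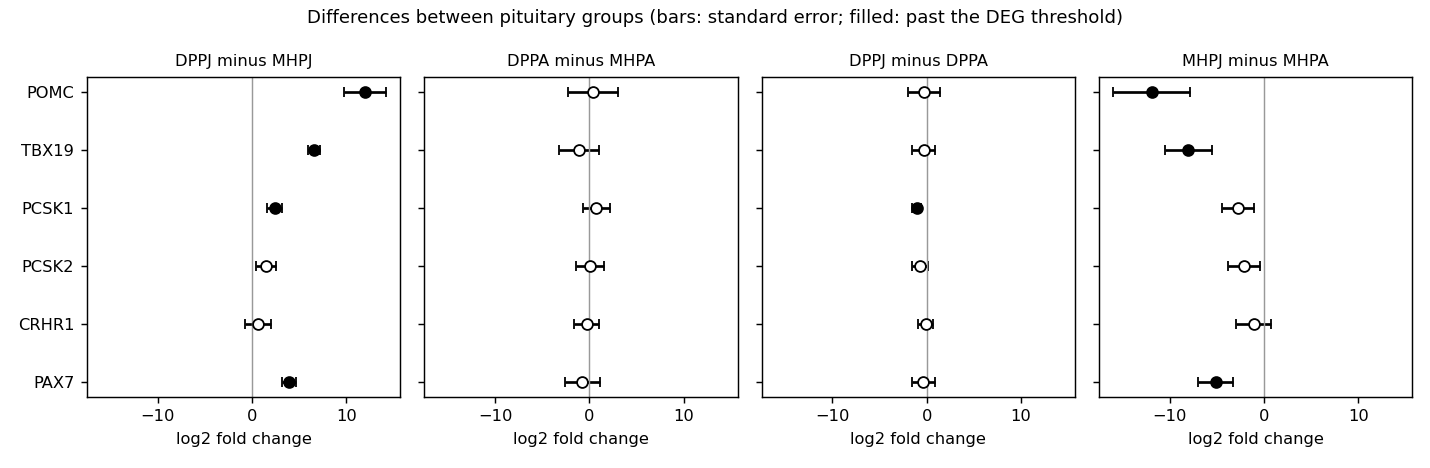
Log2 fold change (x) of the 6 genes (y) in 4 comparisons of pituitary groups, first minus second group, from edgeR's quasi-likelihood test with 3 libraries a group. Bars are approximate standard errors (size of the log2 fold change over the square root of the F statistic), and filled points are DEGs. POMC, TBX19 and PAX7 had the longest distances from 0 in the 2 comparisons that involve MHPJ.

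Melanotrophs express PCSK2 and PAX7 beside the genes they share with corticotrophs, so the ratios of PCSK2 to PCSK1 and of PAX7 to TBX19 were compared within libraries. In the 5 hormone-poor libraries POMC was at an RPKM of 13.0 or less, so their ratios cannot be assigned to these cell types. The log2 ratio of PCSK2 to PCSK1, from RPKM + 0.1, was 0.49, -0.76 and 0.99 in DPPJ, -1.83, 0.67 and -1.07 in DPPA, 0.32, -0.77 and 2.45 in MHPJ, and 2.31, 0.74 and 0.03 in MHPA. The groups overlapped in each comparison. The widest difference in means, DPPA minus MHPA, was -1.77 (two-sided exact permutation p = 0.2; adjusted over 8 tests of ratios, 0.8). Its lowest and highest values, -1.83 and 2.31, were those of the hormone-poor replicate 1 of each group. In that library of MHPA, PCSK1 was at an RPKM of 0.18, close to the pseudocount of 0.1. The hormone-rich libraries were at 0.67 and -1.07 in DPPA and at 0.74 and 0.03 in MHPA. The log2 ratio of PAX7 to TBX19 was between -2.85 and -2.14 in DPPJ and between -0.63 and 0.33 in MHPJ. The groups did not overlap, and the difference of -2.44 had the smallest exact permutation p that 3 against 3 libraries allow, 0.1 (adjusted 0.8). In MHPJ both genes were at RPKM values close to the pseudocount of 0.1, which draws the ratio to 0. In the 7 hormone-rich libraries, where both genes were well above it, the ratio was between -3.86 and -2.02.

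**Figure D4:**
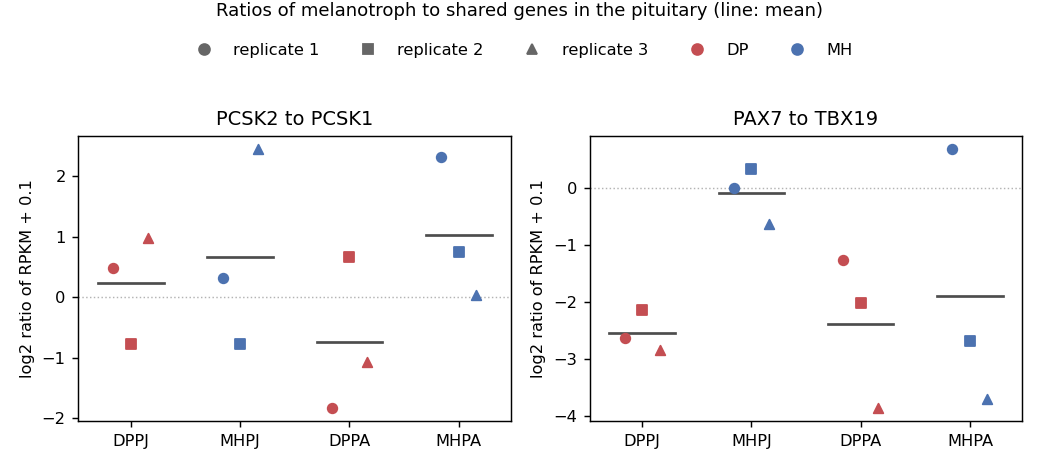
Log2 ratio of RPKM + 0.1 (y) of PCSK2 to PCSK1 and of PAX7 to TBX19 in the 12 pituitary libraries by group (x), with 1 point per library and the mean as a line. MHPJ was above DPPJ in each library for PAX7 to TBX19, and the groups overlapped for PCSK2 to PCSK1.

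Among the 7 hormone-rich libraries, the levels of the 6 genes still varied several fold. From the lowest to the highest library POMC varied 7.09-fold, TBX19 11.7-fold, PCSK1 5.95-fold, PCSK2 6.91-fold, CRHR1 5.60-fold and PAX7 8.99-fold. MHPA replicate 2 had the most TBX19, PCSK1, PCSK2, CRHR1 and PAX7 of all libraries, and DPPA replicate 2 the most POMC. These 2 libraries did not have the most anterior lobe markers, with summed RPKM of 9874 and 13050 against up to 30524 in DPPJ replicate 3. On the scale of log2(RPKM + 0.1) over the 7 libraries, PAX7 went with POMC at r = 0.88 (permutation p = 0.0115, adjusted over 5 relations 0.0397; rho = 0.79, permutation p = 0.0480, adjusted 0.183). PCSK2 did so at r = 0.87 (permutation p = 0.0159, adjusted 0.0397; rho = 0.71, permutation p = 0.0881, adjusted 0.183). Without DPPA replicate 2 and MHPA replicate 2, which lay farthest from the middle POMC level, r was 0.79 for PAX7 and 0.58 for PCSK2 over 5 libraries. The relation of PCSK2 with POMC thus rested in part on these libraries. PCSK1 had an r of 0.72 (permutation p = 0.0452, adjusted 0.0754; rho = 0.68, permutation p = 0.110), which was 0.43 without these libraries. TBX19 had an r of 0.57 (permutation p = 0.204; rho = 0.36, permutation p = 0.444) and CRHR1 of 0.41 (permutation p = 0.417; rho = 0.34, permutation p = 0.459), and without them these were 0.15 and -0.08. The 7 libraries come from 3 groups of unlike breed and stage, which hold too few libraries for a relation within each.

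**Figure D5:**
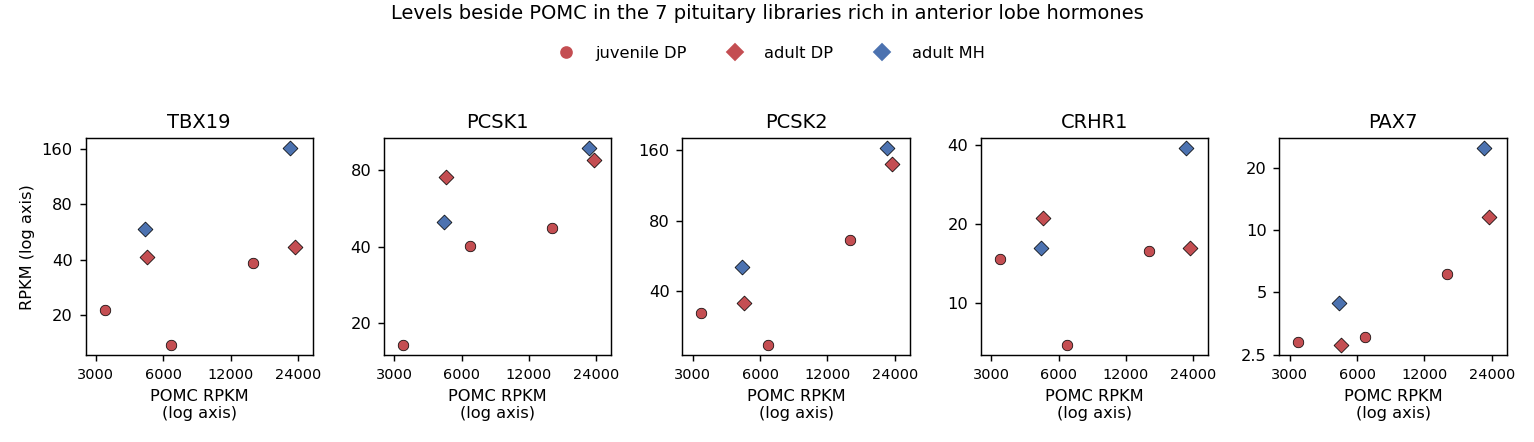
RPKM of TBX19, PCSK1, PCSK2, CRHR1 and PAX7 (y) against RPKM of POMC (x), all on log axes, in the 7 pituitary libraries with over 1000 RPKM of anterior lobe markers, with 1 point per library. The libraries with the most POMC, DPPA replicate 2 and MHPA replicate 2, also had the most PCSK2 and PAX7.

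The genes most like each of the 6 in pattern were taken by Pearson's r of log2(CPM + 1) over all 12 pituitary libraries, among 14534 genes. These values describe libraries that fall into 2 kinds and share their tissue makeup. For POMC they were TRIM21 (r = 0.98), SEC16B (0.98) and VDR (0.98), the receptor of vitamin D. For TBX19 they were C1orf172 (0.98), FICD (0.98) and PRDM4 (0.98), and for PAX7 they were TBX19 itself (0.96), GALNT5 (0.94) and TMEM214 (0.94). PCSK1 was most like TDP2 (0.95), PRUNE2 (0.94) and SYT4 (0.94). PCSK2 was most like COL19A1 (0.98), GLRA3 (0.96) and ETV1 (0.95), and CRHR1 like CCND2 (0.94), the gene written as 4-Mar in the files (0.94) and COL19A1 (0.94). Among the 6 genes themselves, r was 0.97 between POMC and TBX19 and 0.94 between POMC and PAX7. PCSK2 and CRHR1 went together at 0.93, and POMC and CRHR1 at 0.66.

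In the long bone the 6 genes were near the limit of detection in most libraries. TBX19 had between 0 and 25 reads, CRHR1 between 0 and 19 and PAX7 between 1 and 27 reads per library. POMC had 10, 75 and 12 reads in DPLBJ, 5, 1 and 700 in DPLBA, 1, 37 and 0 in MHLBJ, and 11, 0 and 1 in MHLBA. DPLBA replicate 3 and DPLBJ replicate 2 stood above the rest with an RPKM of 80.2 and 10.3. The pituitary hormones GH and PRL were highest in the same libraries, with 429 and 176 reads in DPLBA replicate 3 and 137 and 151 reads in DPLBJ replicate 2. In DPLBA replicate 3 the RPKM of POMC was 1.23% of its median in the hormone-rich pituitary, and those of GH and PRL were 0.174% and 0.118%. The part of pituitary RNA in these reads was not tested. PCSK2 had 708 reads in MHLBA replicate 1 and 128 in DPLBA replicate 3, and between 3 and 24 in the other 10 libraries. PCSK1 was likewise highest in MHLBA replicate 1, with 121 reads against at most 26 elsewhere. This library also had the most SCG5, the chaperone of PCSK2, among the long bone libraries, at an RPKM of 27.0.

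No comparison of the breeds in the long bone gave a DEG among the 6. Of the juvenile groups only POMC (1.94 ± 1.50, adjusted p = 0.542) and PAX7 (0.02 ± 1.11, adjusted p = 0.995) passed the filter on low counts, against 13.8% DEGs over all 13755 genes tested. Without MHLBJ replicate 2 POMC was a DEG there, higher in DPs by 5.86 (adjusted p = 0.291). Of the adult groups only PCSK2 passed the filter (-2.86 ± 1.69, adjusted p = 0.339), against 18.3% DEGs over all 14073 genes, and without MHLBA replicate 1 its difference turned to 1.94. Without single libraries between 2 and 5 genes passed the filter, and between 0 and 2 were DEGs. With the 12 long bone libraries fitted together 5 genes passed the filter, and 2 of them were DEGs in the adult groups. These were POMC and CRHR1, higher in DPs by 5.29 (adjusted p = 0.196) and 4.86 (adjusted p = 0.0881).

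Between the stages of the long bone, PCSK2 was lower in juvenile than in adult DPs by -2.73 ± 1.05 (adjusted p = 0.988) and in juvenile than in adult MHs by -5.15 ± 1.84 (adjusted p = 0.998). DEGs made up 3.14% and 2.91% of the genes tested in these comparisons, and those lower in juveniles 1.56% and 2.14%. Without DPLBA replicate 3 the first was no DEG at -1.23, and without MHLBA replicate 1 the other was none at -0.38, so each rested on the library with the highest count. The first also failed without DPLBJ replicate 1 (-2.55) or 3 (-2.32), and the other without MHLBJ replicate 1 (-4.88), 2 (-4.93) or 3 (-5.86). POMC did not pass between the stages of DPs (-2.46 ± 1.89, adjusted p = 0.988), but without DPLBA replicate 3 it was higher in juveniles by 3.70 (adjusted p = 1.00). PAX7 differed by 0.07 ± 0.61 between the stages of MHs (adjusted p = 0.998).

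By the methods of the study both tissues came from the same 12 horses, but no source used here ties a replicate number to an animal, so the tests of pituitary against long bone treat the libraries as independent. Set against the long bone of the same breed and stage, all 6 genes were DEGs in DPPJ and in DPPA, higher in the pituitary each time. The share of genes higher in the pituitary was 18.3% of 14540 and 19.6% of 14731. Most of the 6 genes passed the filter on low counts only through their pituitary libraries, so the filter favoured this outcome. In DPPJ the log2 fold changes ran from 3.50 ± 1.04 for PAX7 (adjusted p = 0.0412) to 10.55 ± 1.32 for POMC (adjusted p = 0.00200), with 10.54 ± 0.79 for PCSK1 (adjusted p = 0.000379). In DPPA they ran from 4.57 ± 1.41 for PAX7 to 8.55 ± 0.83 for PCSK1, and POMC had 8.34 ± 3.06 (adjusted p = 0.0663). POMC was no DEG in DPPA without DPLBA replicate 1 (7.76) or 2 (7.75), and PAX7 was none without DPLBA replicate 1 (4.61) or 3 (4.40). PAX7 was not tested without DPPA replicate 2, and without DPLBA replicate 3 the difference of POMC was 14.56. With the replicate number as a block PAX7 was no DEG in DPPA (3.38), and the other 5 genes were. In MHPJ only 3 genes passed the filter. PCSK1 (6.29 ± 1.26, adjusted p = 0.0193) and PCSK2 (5.94 ± 1.35, adjusted p = 0.0260) were higher than in MHLBJ, as were 20.2% of 14339 genes, and PAX7 was not a DEG (-0.49 ± 0.77, adjusted p = 0.658). POMC, TBX19 and CRHR1 did not pass the filter. With all 24 libraries fitted together CRHR1 was also a DEG, higher in MHPJ by 8.06 (adjusted p = 0.00380), while POMC (0.42) and TBX19 (1.42) were not.

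In MHPA against MHLBA 4 genes passed the filter, and 14.3% of 14177 genes were higher in the pituitary. CRHR1 (9.92 ± 1.93, adjusted p = 0.0222) and PAX7 (4.68 ± 1.65, adjusted p = 0.102) were higher in the pituitary. With 0, 1 and 0 reads in MHLBA, CRHR1 passed the filter only through MHPA, which favoured this outcome. PCSK1 (5.35 ± 2.53, adjusted p = 0.194) and PCSK2 (2.89 ± 2.05, adjusted p = 0.370) did not pass, and without MHLBA replicate 1 they were DEGs, at 12.18 (adjusted p = 0.0623) and 7.64 (adjusted p = 0.0660). PCSK1 was a DEG in 7 of 10 other settings, among them DESeq2 (5.29), the fit without MHPA replicate 1 (5.94, adjusted p = 0.108) and that of all 24 libraries together (5.47, adjusted p = 0.0226). PAX7 was no DEG with the replicate number as a block (3.05), without MHPA replicate 2 (2.59) or without MHLBA replicate 1 (4.67), 2 (4.52) or 3 (4.85). POMC and TBX19 did not pass the filter, since MHPA replicate 1 had 2 and 0 reads of them. Their reads in the other 2 MHPA libraries, 33220 or more for POMC and 1680 or more for TBX19, were above the 11 or fewer reads of POMC and 1 or fewer of TBX19 in MHLBA. With all 24 libraries fitted together both were DEGs, at 13.52 (adjusted p = 0.0125) and 12.14 (adjusted p = 0.00149).

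The lists of other genes of the pathway were described by their counts of DEGs, beside the shares of DEGs over all genes tested, which were 20.3% in DPPJ against MHPJ, 2.93% in DPPA against MHPA, 3.56% in DPPJ against DPPA and 7.74% in MHPJ against MHPA. Of the transcription factors of the POMC lineage, 9 of 11 were tested in DPPJ against MHPJ, and 5 were higher and 1 lower in DPs. The 8 genes found of the other hormone cells of the anterior lobe were all higher in the same comparison. Their sum set the division into hormone-rich and hormone-poor libraries, so this is no separate result. The part of tissue makeup in the count of factors was not tested. The median log2 fold change of the factors was 3.64, against -0.07 over all genes tested. The LIM factor LHX3 acts in the early pituitary and is shared by its hormone cells, and NEUROD1 acts in corticotrophs. NEUROD1 was at an RPKM of 9.62 to 16.33 in DPPJ and of 0.12 to 1.76 in MHPJ. LHX3 was higher in DPPJ by 9.06 ± 0.61 (adjusted p = 0.00691) and NEUROD4 by 7.69 ± 0.85 (adjusted p = 0.0133). In DPPA against MHPA none of 10 factors tested was a DEG. In DPPJ against DPPA it was 1 of 10, NR4A3, an immediate early gene of the orphan nuclear receptors, at -1.57. In MHPJ against MHPA 1 of 7 factors tested was a DEG, lower in juveniles.

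Of the other enzymes and chaperones of prohormone processing 10 were tested in DPPJ against MHPJ. Of these 1 was lower in DPs, the carboxypeptidase CPD at -1.05, and the median log2 fold change was -0.42. CPE, the carboxypeptidase that trims the peptides after the convertases, had an RPKM of 202, 361 and 426 in the DPPJ libraries from lowest to highest, and of 34.4, 897 and 967 in those of MHPJ. SCG5 was at 641 to 901 in DPPJ and at 10.6 to 252 in MHPJ, and was not a DEG. In DPPJ against DPPA 1 of 10 was lower in juveniles, PAM at -1.04, the enzyme that amidates alpha-MSH. None of 10 was a DEG in DPPA against MHPA or in MHPJ against MHPA.

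Of the inputs to POMC cells, 9 of 17 were tested in DPPJ against MHPJ. HSD11B1, which makes active glucocorticoid, was higher in DPs by 2.23. The second CRH receptor CRHR2 (-4.10) and the cytokine receptor chains LIFR (-1.42) and IL6ST (-1.06) were lower. Their levels were low for CRHR2, with an RPKM of 0.05 to 0.08 in DPPJ and 0.33 to 2.22 in MHPJ. In MHPJ against MHPA only HSD11B1 was a DEG (-3.06), and in DPPA against MHPA only AVP (7.88). AVP was at 4.44, 4.73 and 2106 in DPPA from lowest to highest, so this difference rested on DPPA replicate 1. DRD2, the dopamine receptor through which the hypothalamus restrains melanotrophs, had an RPKM of 24.4 to 51.1 in DPPJ, 7.37 to 67.0 in DPPA, 0.33 to 11.3 in MHPJ and 0.44 to 70.3 in MHPA, and was not a DEG between pituitary groups. It was higher in the pituitary than in the long bone in all 4 comparisons, by 8.36 in DPPJ, 6.80 in DPPA, 5.20 in MHPJ and 6.64 in MHPA (adjusted p between 0.000274 and 0.0843). Over all genes tested 18.3%, 19.6%, 20.2% and 14.3% were higher in the pituitary in these comparisons. A gene that passes the filter on low counts mainly through the pituitary is favoured to be higher there.

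The list of receptors of POMC peptides, with their accessory proteins and antagonists, held genes at unlike levels. The ACTH receptor MC2R had an RPKM of 0 in all 12 pituitary libraries and of at most 0.05 in the long bone. MRAP, its accessory protein, was at up to 10.7 in the long bone and at most 0.19 in the pituitary. MRAP2, a related accessory protein, was found in every group, at 6.14 to 8.38 in DPPJ, 1.44 to 21.5 in DPPA, 2.78 to 27.55 in MHPJ and 3.54 to 7.74 in MHPA. OPRD1, the delta opioid receptor, was at 0.22 to 5.83 in MHPJ and at 1.07 or less in the other pituitary groups. AGRP, an antagonist of melanocortin receptors, was at 0.36 to 5.34 in DPPA and at 0.10 or less in the other pituitary groups, while ASIP, another antagonist, reached 5.29 in the long bone. Of 11 genes on the list 1 was tested in DPPJ against MHPJ, in DPPA against MHPA and in MHPJ against MHPA, and it was no DEG there. In DPPJ against DPPA, 1 of 2 was a DEG, MC4R, lower in juveniles by -2.16, with an RPKM of 0.08 to 0.38 in DPPJ and 0.36 to 1.88 in DPPA.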

How the data were processed

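The authors trimmed the reads of rRNA-depleted, strand-specific libraries, mapped them to the horse genome EquCab 3.0 and deposited whole-number read counts per gene and RPKM values per gene, neither filtered here beforehand. The submitters' processing notes name bcl2fastq, TopHat2 and edgeR, without versions. The methods of the study name Salmon for the mapping instead, and which tool gave the counts was not settled here. RPKM was used for levels and ratios (pseudocount 0.1), and the counts for tests with edgeR 4.0.16 in R 4.3.3: TMM, filterByExpr (minimum count 10), the quasi-likelihood test on the 6 libraries compared, and Benjamini-Hochberg adjustment over all genes tested. The step was tested on simulated data. Alternatives used limma 3.58.1, DESeq2 1.42.0 and other settings. Permutation tests were exact and two-sided (scipy 1.17.1).

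The 6 genes and all gene lists were chosen with earlier results of these data known. The text names the 6 genes, of each list the DEGs with the lowest P (at most 4), and for each of the 6 the 3 genes closest in pattern. Any other gene was named with its value in view, and the division of the pituitary libraries at a summed RPKM of 1000 was likewise chosen after seeing the data. Libraries of equal replicate number deviated alike in DPPA and MHPA (r of deviations 0.64, 0.53 and 0.35), and no other groups met this rule for pairing. These 2 groups are different animals of different breeds, and replicate 1 was the hormone-poor library in both, so no animals are paired by it. Which pituitary and long bone libraries share an animal is not given in the sources used here. The reference used here holds no sequence, so none is shown. One gene of the lists is not reported here.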

Additional observations from a re-analysis of the deposited data

Results flagged for a closer look

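For POMC and TBX19 the difference between the breeds in the pituitary passed the unadjusted threshold as unequal between the stages, and did not pass after adjustment. The log2 fold change of DPs over MHs was larger in juveniles than in adults by 11.70 for POMC (adjusted p = 0.184 in edgeR's quasi-likelihood test) and by 7.69 for TBX19 (adjusted p = 0.187). The difference itself was tested, as the breed by stage term of a fit to the 12 pituitary libraries, in which 15.7% of the 15200 genes tested passed the same unadjusted threshold and none an adjusted p of 0.05. With single libraries left out the adjusted p was between 0.0637 and 0.351 for POMC and between 0.0557 and 0.345 for TBX19. All 3 MHPJ libraries were poor in anterior lobe hormones, and the part of this difference in makeup cannot be told apart from that of breed and stage.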

How the results depend on the processing

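Of the alternative values of the main results, 182 kept their direction and their side of the threshold, 19 turned sign, 7 lost the call and 23 were counts that moved; for single genes beside them 646 kept both, 43 turned sign, 51 lost a call and 19 gained one. The values that turned sign under other settings were these. For DPPA minus MHPA these were POMC at -0.0051 and PCSK2 at -0.26 without TMM, PCSK2 at -0.042 without the hormone-poor adult libraries, and CRHR1 at 0.24 with limma on log2(RPKM + 0.1). For DPPJ minus DPPA, limma on log2(RPKM + 1) and on log2(RPKM + 0.1) gave 2.54 and 2.57 for POMC, 0.74 and 1.22 for TBX19, 0.37 and 0.52 for CRHR1, and 0.37 and 1.06 for PAX7. For MHPJ minus MHPA no gene was a DEG by limma, with POMC at -8.12 and -9.82. PAX7 in DPLBJ minus MHLBJ was -0.25 without TMM, -0.073 and -0.50 with limma and -0.027 with the 12 long bone libraries fitted together, and POMC in DPLBJ minus DPLBA was 0.40 with limma on log2(RPKM + 0.1). With a pseudocount of 1 the difference in the log2 ratio of PCSK2 to PCSK1 was 0.13 for MHPJ minus MHPA, and that of PAX7 to TBX19 was 0.088 for DPPA minus MHPA. From reads + 0.5 the latter was 0.015 for DPPJ minus DPPA. The cause was not tested for any of these.

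In the long bone the count of the 6 genes called was 3 without the filter and 2 with the 12 libraries fitted together for DPLBA minus MHLBA, against 0. For DPLBJ minus DPLBA it was 2 without the filter, and 0 with limma on either scale or with the 12 libraries together, against 1. For MHLBJ minus MHLBA it was 0 with limma, against 1. Without single libraries it ran from 0 to 1 for DPLBJ minus MHLBJ, from 0 to 2 for DPLBA minus MHLBA, and from 0 to 1 for both comparisons of stages. In the pituitary it ran from 3 to 4 for DPPJ minus MHPJ, from 0 to 1 for DPPJ minus DPPA and from 0 to 4 for MHPJ minus MHPA, and it was 0 for DPPA minus MHPA each time.

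The rule for pairing by replicate number was met only by DPPA and MHPA, which are different animals. In that comparison the replicate block changed no call and gave 0.30 for CRHR1. In no other comparison was the rule met, and whether equal numbers of pituitary and long bone mark the same animal is not given in the sources used here. There the replicate block gave 0.32 for POMC, 0.10 for TBX19, 0.21 for CRHR1 and 0.58 for PAX7 in DPPJ minus DPPA, and left 1 of 3 calls in MHPJ minus MHPA, 5 of 6 in DPPA minus DPLBA and 1 of 2 in MHPA minus MHLBA. In the long bone the replicate block gave -0.71 for PAX7 in DPLBJ minus MHLBJ, 0.89 for POMC in DPLBJ minus DPLBA and -0.048 for PAX7 in MHLBJ minus MHLBA, with 1, 0 and 0 genes called in these comparisons.

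Leaving out single libraries, which leaves 2 in an arm, turned further signs. For DPPA minus MHPA the range was -1.67 to 2.12 for POMC, -1.68 to 0.18 for TBX19, -1.38 to 1.45 for PCSK2, -0.89 to 0.78 for CRHR1 and -2.60 to 1.28 for PAX7. For DPPJ minus DPPA it was -1.09 to 1.72 for POMC, -0.91 to 0.24 for TBX19, -1.30 to 0.73 for PCSK2, -0.64 to 0.35 for CRHR1 and -0.94 to 1.48 for PAX7. For MHPJ minus MHPA it was -18.82 to -10.09 for POMC and -1.77 to 0.052 for CRHR1, and for DPPA minus DPLBA it was 6.37 to 14.56 for POMC. The breed by stage term was -0.015 to 2.89 for PCSK2 and -0.14 to 1.69 for CRHR1. In the long bone PAX7 ran from -2.21 to 0.53 in DPLBJ minus MHLBJ and from -0.37 to 0.42 in MHLBJ minus MHLBA, PCSK2 from -4.36 to 1.94 in DPLBA minus MHLBA, and POMC from -4.08 to 3.70 in DPLBJ minus DPLBA. The log2 ratio of PCSK2 to PCSK1 ran from -1.15 to 0.46 for DPPJ minus MHPJ and from -1.25 to 0.36 for MHPJ minus MHPA, and that of PAX7 to TBX19 from -1.38 to 0.81 for DPPA minus MHPA and from -0.90 to 0.39 for DPPJ minus DPPA.

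DESeq2 gave no P for PCSK2 in DPLBA minus MHLBA and MHLBJ minus MHLBA or for POMC in DPLBJ minus DPLBA, and these were not used. POMC in MHPA minus MHLBA, which did not pass the filter, had 13.44 ± 3.47 without it (adjusted p = 0.0542), and in MHPJ minus MHLBJ 0.50 ± 2.08. In the long bone most counts of the 6 genes were under 30 reads, which limits each comparison there. Leaving out the hormone-poor adult libraries from the breed by stage term was chosen after seeing the data. The replicate block moved that term past the unadjusted threshold for PAX7, at 5.65.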
